A study of Homo sapiens with 2 samples.

Results

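Genes of the interferon pathway and genes that interferon induces were compared between HaCaT cells exposed to arsenic trioxide and passage control cells. HaCaT is an immortalised human keratinocyte line grown from skin. The named set held 48 genes, and a gene was followed where a probe of the deposited table named it alone. By this rule 45 genes were followed, with 58 probes, of 18447 genes with a probe naming 1 symbol. Of the set, IRF9, IFI35 and IFITM2 were not analysed here, because no probe used here names them alone. Exposed cells were kept in 0.5 µg/ml of arsenic trioxide until passage 22. Passage control cells reached passage 22 with no arsenic trioxide. Each group was 1 line of HaCaT cells with 4 RNA preparations, called technical replicates by the submitters, and 3 arrays for each, so 24 arrays were listed. The deposited values combine these into 1 intensity and 1 error per probe and group. Exposure and drift between the lines therefore cannot be told apart.

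Interferons are secreted proteins that warn cells of infection. They bind paired receptor chains at the cell surface, which carry Janus kinases, and the kinases activate STAT proteins that enter the nucleus with IRF proteins and switch on antiviral genes. Keratinocytes respond to type I and type II interferon and carry RNA sensors that can start interferon production. The type I response acts through a DNA element called ISRE, while interferon gamma acts through a shorter element called GAS.

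Of the 45 genes, 20 were detected in both groups and 25 in neither, and no gene was detected in 1 group alone. A gene counted as detected in a group where its deposited detection p-value there lay below 0.05. IFITM1, a membrane protein that blocks virus entry, was lower in exposed cells, by 1.28-fold relative to the median gene. Ratios are given relative to the median of all probes detected in both groups, because that median lay at -0.43 on the log2 scale, 1.35-fold lower in exposed cells. IFITM1 was the only gene of the 20 that passed the test. None rose. The other 19 did not pass, the closest being IRF1, a transcription factor of the interferon response, with a log2 ratio of -0.49 ± 0.17. A gene passed where its p-value from the authors' deposited table, after Benjamini-Hochberg adjustment over 7680 genes, lay below 0.05. No source used here says which test gave these p-values. Of all genes tested 5.68% passed, 2.57% as lower and 3.11% as higher, so the count of 1 in 20 lies near the background. Of all genes that passed 54.8% were higher, or 43.8% without centring. At an unadjusted deposited p below 0.05, 2 of the 20 genes (IFITM1 and IRF1) passed, both lower, against 13.6% of all genes in either direction, 6.42% as lower and 7.15% as higher.

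Promoters were picked for IFITM1, which passed, for the 3 largest differences below 0 and for the 2 largest above 0. Of these, the promoters of IFITM1, IFITM3 and IRF1 are shown, because each held an ISRE or GAS match as defined below. They are RefSeq sequences on the assembly GRCh38.p14, 300 bases each, from 250 bases before the gene's start to 50 after it. Capitals mark matches to the core of the ISRE, which is GAAA, any 2 bases and GAAA again, or to TTCNNNGAA, the core of the GAS. The ISRE core was searched on both strands, and its matches shown lay on the strand printed. The GAS core reads the same on both strands.
IFITM1, chr11:313790-314089, plus strand: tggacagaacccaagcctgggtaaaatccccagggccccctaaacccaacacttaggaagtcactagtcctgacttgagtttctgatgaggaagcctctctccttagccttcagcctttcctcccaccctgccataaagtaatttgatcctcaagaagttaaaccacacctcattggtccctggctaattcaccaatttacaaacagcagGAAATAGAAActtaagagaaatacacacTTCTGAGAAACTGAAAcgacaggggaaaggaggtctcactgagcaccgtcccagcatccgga
IFITM3, chr11:320811-321110, minus strand: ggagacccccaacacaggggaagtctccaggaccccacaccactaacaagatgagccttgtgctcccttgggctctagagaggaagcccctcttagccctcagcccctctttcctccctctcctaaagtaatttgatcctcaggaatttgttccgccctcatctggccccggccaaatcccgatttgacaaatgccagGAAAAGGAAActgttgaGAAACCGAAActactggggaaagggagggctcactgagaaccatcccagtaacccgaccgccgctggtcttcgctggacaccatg
IRF1, chr5:132490724-132491023, minus strand: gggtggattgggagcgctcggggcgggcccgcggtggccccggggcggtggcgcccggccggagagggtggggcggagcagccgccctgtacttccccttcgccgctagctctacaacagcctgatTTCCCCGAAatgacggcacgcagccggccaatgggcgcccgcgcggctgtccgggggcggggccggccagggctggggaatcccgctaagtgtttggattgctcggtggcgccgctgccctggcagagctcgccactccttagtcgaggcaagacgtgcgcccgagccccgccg
The IFITM1 promoter holds GAAATAGAAA, which begins 40 bases before the start, and GAAACTGAAA, which begins 6 bases before it. The match GAAACTGAAA overlaps the GAS core TTCTGAGAA, which begins 12 bases before the start, so that both form 1 run of capitals. In the IFITM3 promoter GAAAAGGAAA begins 52 bases and GAAACCGAAA 35 bases before the start. The IRF1 promoter holds no match to the ISRE core in this window and 1 to the GAS core, TTCCCCGAA, 124 bases before the start. The promoters of IFI16, STAT2 and IFNAR1, the largest difference below 0 and the largest 2 above 0, held neither motif in this window.

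A promoter entry was matched for 37 of the 48 genes. The ISRE core occurred in 20 of these 37 promoters (54.1%), against 3.57% of all 35116 promoters of 300 bases. It lay in 18 of 24 promoters of effector genes and in 2 of 13 promoters of the receptor, kinase, factor, sensor and inhibitor genes. The GAS core occurred in 6 of the 37 (16.2%), against 7.66% of all promoters. The genes were chosen for their part in the interferon response, so these shares describe that choice and not a difference between the groups. Among the genes detected in both groups, 9 had the ISRE core and a median log2 ratio of -0.13, with 6 of the 9 below 0. Another 7 had a promoter entry without it and a median log2 ratio of -0.13, with 5 of the 7 below 0. Of the detected genes 3 had the GAS core, IFITM1 and IRF1 among them, with a median log2 ratio of -0.36 and all 3 below 0. Another 13 had a promoter entry without the GAS core and a median log2 ratio of -0.021, with 8 of the 13 below 0. Of all genes detected in both groups 49.1% lay below 0. The splits by motif are descriptions of few genes and were not tested.

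Levels below are deposited normalized intensities with their deposited errors, and log2 ratios are exposed over passage control. The error of a ratio was computed from the deposited errors of both groups and is not an SD. In bulk RNA of this kind, fewer cells with a transcript and less RNA per cell cannot be told apart. Intensities of different probes are not set against each other.

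**Figure D1:**
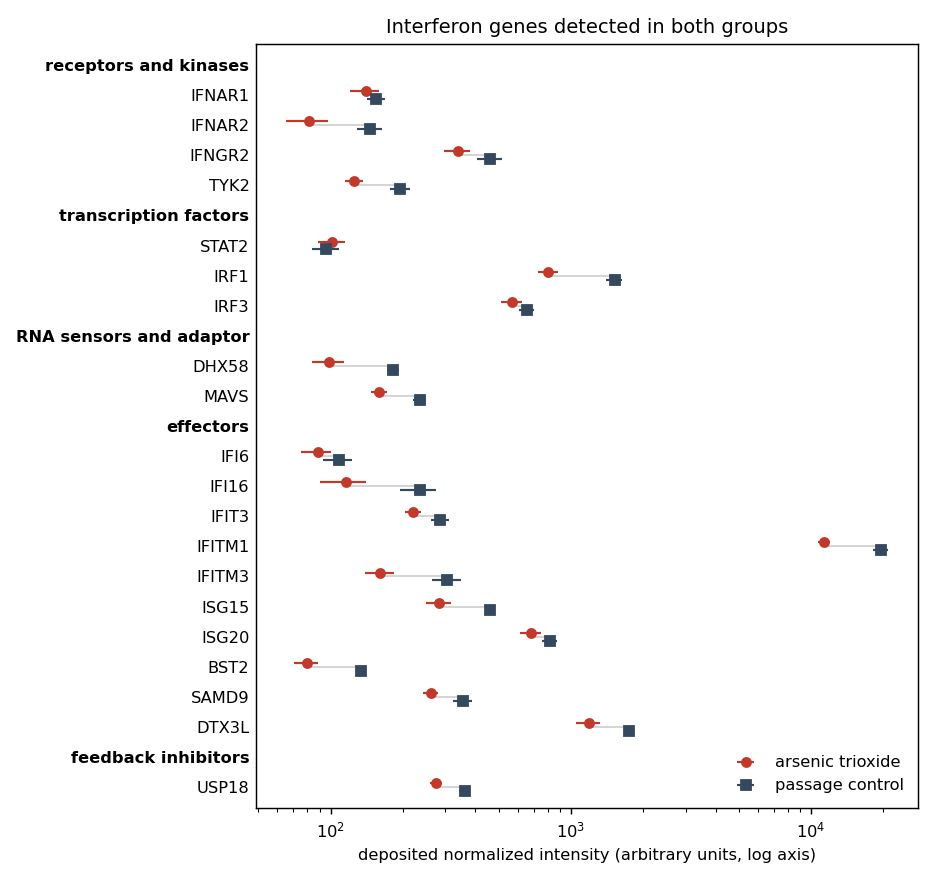
Deposited normalized intensity (x, log axis, arbitrary units) of the 20 genes detected in both groups, ordered by role, with exposed cells as circles and passage control cells as squares. Bars are the deposited errors. In 19 of the 20 genes the circle lies left of the square, the exception being STAT2. These intensities are not centred, and the median probe detected in both groups was 1.35-fold lower in exposed cells.

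Receptor chains and their kinases take up the signal, and 4 of 7 were detected. IFNAR1, a chain of the type I receptor, read 139.7 ± 19.1 in exposed cells, against 155 ± 13.1 in passage control cells. IFNAR2, its partner chain, read 81.3 ± 16.2 in exposed cells against 146 ± 16.9 in passage control cells. IFNGR2, a chain of the interferon gamma receptor, read 339 ± 41.7 in exposed cells, against 462 ± 55.5 in passage control cells. Before centring the intensities of IFNAR1 overlapped within their errors, and those of IFNAR2 and IFNGR2 did not. These intensities carry the shift of the median gene. The centred ratio of IFNGR2 was smaller than its error, while those of IFNAR1 and IFNAR2 were larger than theirs. TYK2, the kinase bound to IFNAR1, read 126 ± 10.8 in exposed cells, against 195 ± 19.0 in passage control cells. Relative to the median gene the log2 ratio was 0.28 ± 0.23 for IFNAR1 (-0.15 without centring) and -0.42 ± 0.33 for IFNAR2. It was -0.017 ± 0.25 for IFNGR2 and -0.20 ± 0.19 for TYK2. None of the 4 passed, with adjusted p-values from 0.80 for IFNAR1 to 0.999 for IFNAR2. Second probes of IFNAR1 and IFNAR2 were detected in neither group. IFNGR1, the ligand-binding chain of the interferon gamma receptor, and the kinases JAK1 and JAK2 were detected in neither group, at intensities from 4.90 to 24.9 in exposed and 4.22 to 25.1 in passage control cells.

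Transcription factors were detected for 3 of the 5 genes with a probe. IRF1, which activates interferon and antigen presentation genes, read 805 ± 75.1 in exposed cells, against 1521 ± 118 in passage control cells. These values lie apart by more than their errors, and the log2 ratio was -0.49 ± 0.17, or 2.79 times its error. The authors' deposited table gave a log2 ratio of -0.46 with a p-value of 0.00312. The largest deposited p-value that passed was 0.00283, so IRF1 lay just outside the limit, with an adjusted p-value of 0.0535. Where only genes above the median intensity were kept, its adjusted p-value was 0.0346. A second IRF1 probe, at 10.7 in exposed and 26.7 in passage control cells, was detected in neither group. STAT2, part of the complex with IRF9 that binds the ISRE, read 102 ± 13.2 in exposed cells, against 95.9 ± 12.7 in passage control cells. Before centring it was the only detected gene of the set with the higher intensity in exposed cells, although both values overlap within their errors. These values carry the shift of the median gene. The centred log2 ratio of STAT2 was 0.51 ± 0.27 (0.082 without centring), the authors' deposited table gave 0.25, and STAT2 did not pass. IRF3, which drives interferon transcription after RNA or DNA sensing, read 567 ± 57.0 in exposed cells, against 656 ± 47.5 in passage control cells, a log2 ratio of 0.22 ± 0.18 (-0.21 without centring) that did not pass. IRF7, the factor that amplifies interferon production, and IRF2, which can oppose IRF1, were detected in neither group. IRF7 read 10.9 ± 1.95 in exposed cells, against 27.7 ± 6.40 in passage control cells.

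Of the RNA sensors and their adaptor, 2 of 4 genes were detected. DHX58, also called LGP2, a helicase that tunes the other sensors, read 98.5 ± 14.9 in exposed cells, against 182 ± 10.1 in passage control cells. The values do not overlap within their errors, and the log2 ratio was -0.46 ± 0.23, with a deposited p-value of 0.0504 and an adjusted p-value of 0.371. MAVS, the mitochondrial adaptor through which the sensors signal, had 2 detected probes. The brighter probe read 159 ± 11.97 in exposed cells, against 235 ± 15.0 in passage control cells, a log2 ratio of -0.13 ± 0.14. The other read 126 ± 8.42 in exposed cells, against 159.5 ± 9.40 in passage control cells, a log2 ratio of 0.087 ± 0.13. After centring these 2 MAVS probes thus lay on opposite sides of 0, each within its error. The authors' deposited table gave both below 0, at -0.19 for the brighter and -0.019 for the other. The brighter probe did not pass (adjusted p-value 0.950), and a further MAVS probe was detected in neither group. DDX58, now named RIGI, and IFIH1, also called MDA5, the sensors of viral RNA in the cytoplasm, were detected in neither group. IFIH1 read 36.6 ± 5.66 in exposed cells, against 43.3 ± 5.51 in passage control cells.

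**Figure D2:**
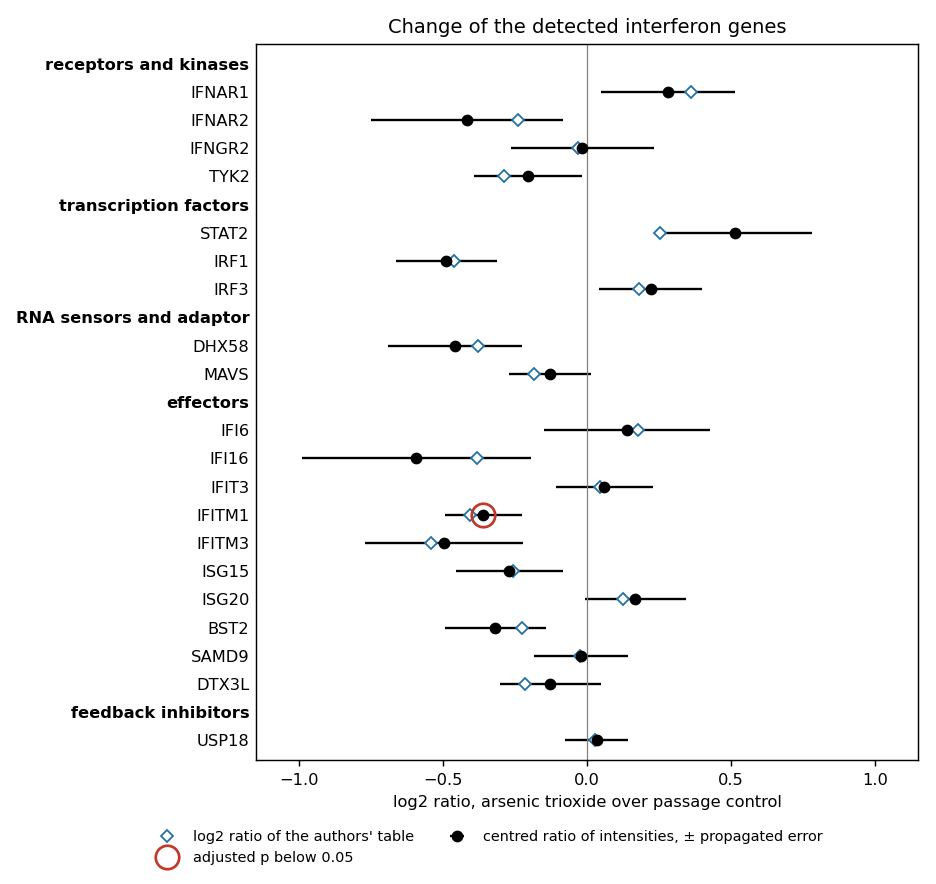
Log2 ratio of exposed over passage control cells for the 20 detected genes by role. Black points are the centred ratios of the deposited intensities with propagated errors, open diamonds the log2 ratios of the authors' deposited table, and the red ring the gene with an adjusted p below 0.05. Of the 20 points 13 lie left of 0, and every diamond lies on the same side of 0 as its point.

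Effectors were detected for 10 of 27 genes with a probe. All 10 had the lower intensity in exposed cells before centring, as did the median probe detected in both groups, by 1.35-fold. After centring 7 of the 10 lay below 0, against 49.1% of all genes detected in both groups. IFITM1 read 11316 ± 663 in exposed cells, against 19560.1 ± 1394 in passage control cells. The difference was larger than both errors together, and the log2 ratio was -0.36 ± 0.13 (-0.79 without centring). The authors' deposited table gave -0.41 with a p-value of 1.49e-05, which adjusts to 7.29e-04. IFITM3, which blocks viral fusion in endosomes, read 161 ± 21.6 in exposed cells, against 306 ± 41.3 in passage control cells, a log2 ratio of -0.50 ± 0.27 that did not pass (adjusted p-value 0.781). A further probe, which names IFITM3 together with the pseudogenes IFITM4P and RPL23AP1 and so stands outside the set, read 5341 ± 195 in exposed cells, against 9554 ± 763 in passage control cells. Its log2 ratio was -0.41 ± 0.13, with a deposited p-value of 2.76e-05, or 0.00165 adjusted over the 14401 probes with a p-value. IFITM genes are close copies whose probes can share targets, so the IFITM1 and IFITM3 values may not be separate measurements. Both IFITM genes and the shared probe read lower in exposed cells.

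ISG15, a ubiquitin-like protein that is joined to other proteins, read 283 ± 33.6 in exposed cells, against 460.3 ± 23.0 in passage control cells, a log2 ratio of -0.27 ± 0.19. USP18 removes ISG15 from proteins and also dampens the type I receptor. It read 275 ± 15.8 in exposed cells, against 362 ± 18.5 in passage control cells, a log2 ratio of 0.033 ± 0.11 (-0.40 without centring). A second USP18 probe had a log2 ratio of 0.018 ± 0.16, so both USP18 probes lay close to the median gene. BST2, or tetherin, which holds budding virus at the cell surface, read 79.5 ± 8.91 in exposed cells, against 133 ± 6.00 in passage control cells, a log2 ratio of -0.32 ± 0.17. IFI16, a sensor of DNA, read 116 ± 25.0 in exposed cells, against 235 ± 40.0 in passage control cells. Its log2 ratio of -0.59 ± 0.40 was the lowest of the set and had the widest error, and the authors' deposited table gave -0.38 with a p-value of 0.466. Neither ISG15, USP18, BST2 nor IFI16 passed, with adjusted p-values of 0.961, 0.999, 0.988 and 0.999.

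The remaining detected effectors lay near the median gene. IFIT3, which supports binding of foreign RNA by IFIT1, read 221 ± 17.1 in exposed cells, against 285 ± 24.6 in passage control cells, a log2 ratio of 0.060 ± 0.17 (-0.37 without centring). ISG20, an exonuclease that degrades RNA, read 681 ± 68.1 in exposed cells, against 817 ± 56.3 in passage control cells, a log2 ratio of 0.17 ± 0.18 (-0.26 without centring). SAMD9, which restricts poxviruses, read 261 ± 17.7 in exposed cells, against 356 ± 32 in passage control cells, a log2 ratio of -0.021 ± 0.16. These ratios were smaller than their errors. For SAMD9, a second probe was detected in neither group. DTX3L, a ubiquitin ligase that works with PARP9, read 1186 ± 140.4 in exposed cells, against 1745 ± 53.6 in passage control cells, a log2 ratio of -0.13 ± 0.18. IFI6, a small membrane protein induced by type I interferon, read 88.1 ± 12.6 in exposed cells, against 108 ± 14.9 in passage control cells, a log2 ratio of 0.14 ± 0.29 (-0.29 without centring). A second IFI6 probe was detected in neither group, and the authors' deposited table gave it a log2 ratio of -0.61 with a p-value of 0.286. None of the 5 passed.

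Over the 20 detected genes the median log2 ratio was -0.13, against 0.0039 over the 7242 genes detected in both groups, and the median error was 0.18, against 0.20. Of the 20 genes 13 lay below 0 and 7 above it, while 49.1% of all genes detected in both groups lay below 0. Without centring 19 lay below 0, with STAT2 alone above it at 0.082, and the median was -0.56. The median over all genes detected in both groups was then -0.43. With centring the median was -0.11 for receptors and kinases and 0.22 for transcription factors. It was -0.29 for RNA sensors and adaptor and -0.20 for effectors, each from 10 genes or fewer. The ratio was larger than its error in 12 of the 20 genes, against 40.8% of all genes detected in both groups. It was larger than 2 errors in 2 of the 20, IFITM1 and IRF1, against 16.7% of all genes.

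**Figure D3:**
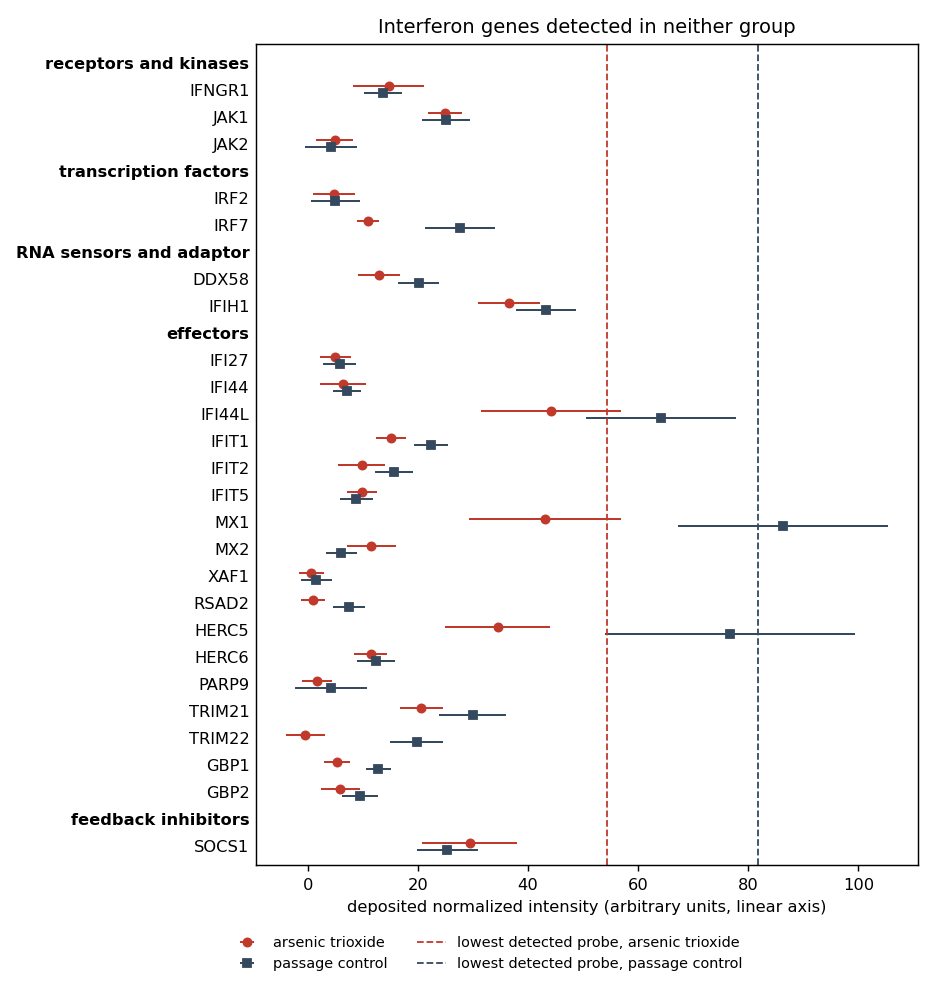
Deposited normalized intensity (x, linear axis, arbitrary units) of the 25 genes detected in neither group, with deposited errors as bars, exposed cells as circles and passage control cells as squares. Dashed lines mark the lowest intensity of any detected probe, 54.4 in exposed cells, against 81.7 in passage control cells. MX1 in passage control cells, at 86.3, is the only point right of its group's line.

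Of the 45 genes 44.4% were detected in both groups, against 39.3% of all genes with a probe. A probe that was not detected says that its target was not measured at this sensitivity, not that the transcript is absent. The undetected effectors were 17 genes. They included the antiviral RNA-binding proteins IFIT1, IFIT2 and IFIT5, the antiviral enzyme RSAD2, or viperin, and the dynamin-like GTPases MX1 and MX2. GBP1 and GBP2, guanylate-binding proteins induced by interferon gamma, were also undetected, as were the ligases HERC5, HERC6, TRIM21 and TRIM22. The others were IFI27, IFI44, IFI44L, XAF1 and PARP9. SOCS1, which inhibits the Janus kinases, read 29.4 ± 8.63 in exposed cells, against 25.4 ± 5.49 in passage control cells and was not detected either. Intensities of all 25 undetected genes ran from -0.38 to 44.1 in exposed cells, and from 1.61 to 86.3 in passage control cells. Before centring the intensity was lower in exposed cells in 20 of the 25, and in 19 of the 20 detected genes. The median probe detected in both groups was then 1.35-fold lower as well, and the share of all genes that read lower was not computed. These counts are therefore not read as a fall of the set.

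The authors' deposited table gave a log2 ratio for 3 of the undetected genes, MX1, HERC5 and IFI44L. MX1 read 43.2 ± 13.8 in exposed cells, against 86.3 ± 19.1 in passage control cells, with detection p-values of 0.367 and 0.105. Its deposited log2 ratio was -0.63 with a p-value of 0.00212, or 0.05001 once adjusted over the 14401 probes with a p-value. The adjustment over 7680 genes did not include MX1, because it was not detected, and so it is not counted here. The largest deposited p-value that passed in that adjustment was 0.00283. HERC5 read 34.5 ± 9.51 in exposed cells, against 76.7 ± 22.7 in passage control cells, with a deposited log2 ratio of -0.33 and a p-value of 0.456. IFI44L read 44.1 ± 12.7 in exposed cells, against 64.2 ± 13.6 in passage control cells, with a deposited log2 ratio of 0.039 and a p-value of 0.963. The deposited log2 ratio was thus below 0 for MX1 and HERC5 and near 0 for IFI44L.

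Other genes of the pathway were taken from 3 lists. Of 11 interferon genes with a probe (IFNB1, IFNK, IFNG, IFNW1, IFNL1 and 6 IFNA genes), none was detected in either group. Their intensities reached 58.8 in exposed cells, against 79.3 in passage control cells, both values being those of IFNB1, which encodes interferon beta. Of 17 further signalling genes with a probe, 11 were measured and none passed, with a median log2 ratio of 0.019. The closest to the limit was TMEM173, the DNA sensing adaptor also called STING, with a log2 ratio of -0.50 ± 0.22 and an adjusted p-value of 0.0578.

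Of 51 further interferon-induced genes with a probe, 32 were measured. Of these 8 were lower in exposed cells, 1 was higher and 23 did not pass. Below 0 lay 27 of the 32, against 49.1% of all genes detected in both groups, with a median log2 ratio of -0.27. This list was drawn up with results for several of its genes already known. Its counts beside the backgrounds of 49.1% below 0 and 2.57% lower therefore describe the list only. OASL, an OAS-like antiviral protein, read 1163 ± 54.2 in exposed cells, against 4737 ± 324 in passage control cells, with a log2 ratio of -1.60 ± 0.12 (adjusted p-value 3.43e-29). GBP4, a guanylate-binding protein, read 322 ± 33.7 in exposed cells, against 789 ± 67.8 in passage control cells, with a log2 ratio of -0.86 ± 0.20 (adjusted p-value 6.18e-08). These falls were larger than any among the 20 genes described above. TNFSF10, a death ligand, had a log2 ratio of -1.31 ± 0.27. PARP10, an ADP-ribosyltransferase, had -0.70 ± 0.16, RTP4 -0.65 ± 0.21, OAS1 -0.55 ± 0.13, ADAR, an RNA-editing enzyme, -0.36 ± 0.16, and PSMB9, an immunoproteasome subunit, -0.33 ± 0.13. Adjusted p-values of these 6 ran from 3.73e-04 for TNFSF10 to 0.0250 for RTP4. EIF2AK2, which encodes the RNA-activated kinase PKR, was the gene that rose, reading 192 ± 34.5 in exposed cells, against 128 ± 12.9 in passage control cells. Its log2 ratio was 1.01 ± 0.30 (0.58 without centring), with an adjusted p-value of 0.01135. Both EIF2AK2 intensities lay below 200, so low signal limits this value. IDO1, a tryptophan-degrading enzyme induced by interferon gamma, read 61.6 ± 14.4 in exposed cells, where it was not detected, against 266 ± 53.7 in passage control cells, where it was. It did not pass, with an adjusted p-value of 0.477.

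**Figure D4:**
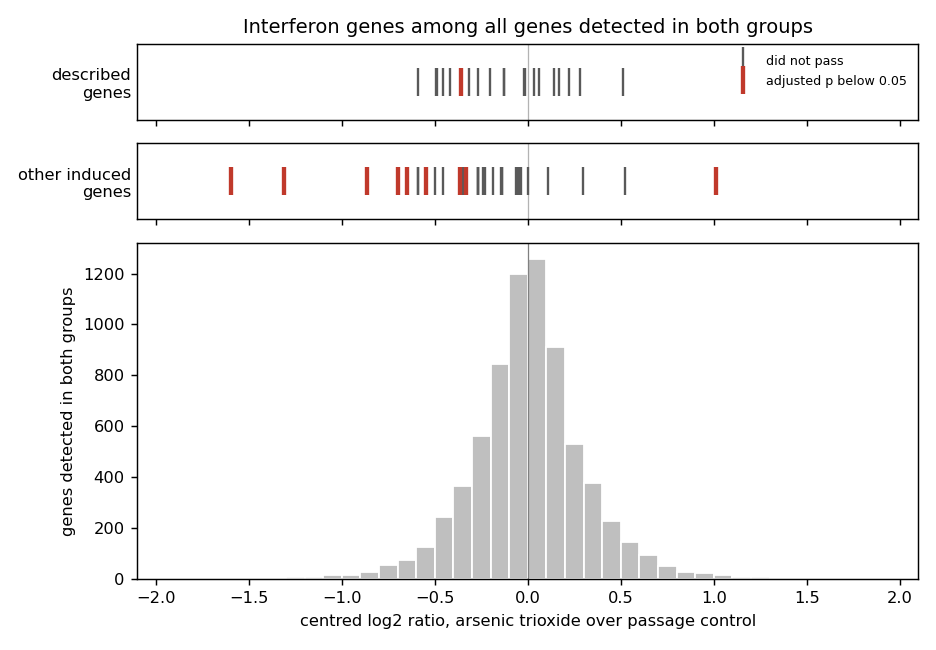
Centred log2 ratio of exposed over passage control cells for the 20 detected genes (top), for the 31 other interferon-induced genes detected in both groups (middle) and as a histogram over all 7242 genes detected in both groups (bottom, genes per bin). Red ticks had an adjusted p below 0.05. The top ticks span -0.59 to 0.51, and the middle ticks reach from OASL at -1.60 to EIF2AK2 at 1.01.

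Of 9 keratinocyte markers with a probe, 8 were detected in both groups, among them KRT5, SFN and TP63, while LAMB3 was not. Their median log2 ratio was -0.038 and none passed. Of 7 leukocyte markers CD3D, CD14 and CD68 were detected in both groups, and PTPRC, CD3E and LYZ were among those detected in neither. CD14, a co-receptor of innate sensing that keratinocytes can also make, read 545 ± 59.6 in exposed cells, against 1190 ± 71.1 in passage control cells, and fell with a log2 ratio of -0.70 ± 0.18 (adjusted p-value 7.65e-08). CD68, a lysosomal protein abundant in macrophages, read 351 ± 44.1 in exposed cells, against 337 ± 32.6 in passage control cells, a log2 ratio of 0.49 ± 0.23 that did not pass (adjusted p-value 0.649). CD3D, a chain of the T cell receptor complex, read 2003 ± 294 in exposed cells, against 3160 ± 507 in passage control cells, a log2 ratio of -0.23 ± 0.31 that did not pass (adjusted p-value 0.999). The part of these markers in the interferon gene values was not tested. Of 6 fibroblast markers COL1A1, LUM and PDGFRB were detected in both groups, COL1A2 in exposed cells alone, and COL3A1 and DCN in neither. Of 5 melanocyte markers PMEL was detected in both groups, MITF in exposed cells alone, and MLANA, DCT and TYRP1 in neither. Of 4 endothelial markers CDH5 was detected in both groups, and VWF, KDR and TEK in neither.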

How the data were processed

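Per the labels' protocols, RNA of HaCaT cells was turned into amino-allyl aRNA and labelled with Cy5. Which scanner and normalization were used, and how arrays were combined, is not given in the sources used here. Per the file headers, the authors deposited a normalized intensity, its error and a detection p-value per probe and group, and a log2 ratio with a p-value of the comparison. A second deposited set of intensities was the same to within 5.00e-07. No source names the test behind the deposited p-values. They can cover only the variation among technical preparations of 1 line per group.

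The named genes, their roles, the 3 further lists and the marker lists were chosen with earlier results of these data known. Probes (30968) naming 1 symbol (22935) were used. Symbols were updated by gene identifier through RefSeq's table for GRCh38.p14, which matched 19795 probes, while 3140 kept the file's symbol. Each gene was read from its probe with the highest mean intensity. Log2 ratios of the deposited intensities were centred on the median over the 9915 probes detected in both groups. Where 1 group alone detected a probe, the ratio was a bound that used the lowest detected intensity of the other group. The undetected value was used instead where that was higher. Deposited p-values were adjusted over 7680 genes. All genes of the set are given, with full values for those detected. Some values of the further lists are not reported here. The number of arrays limits the precision, and no test could be computed from 1 combined value per group. Alternatives were no centring, the deposited log2 ratio, quantile normalization, an offset of 32, the mean of detected probes, a detection limit of 0.01, a filter on dim genes and other adjustments. The scripts were checked on simulated data with a known shift, with Python 3.11.15, numpy 2.4.6 and pandas 2.3.3.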

Additional observations from a re-analysis of the deposited data

How the results depend on the processing

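Without centring the median log2 ratio of the 20 detected genes was -0.56, against -0.13 with it, and all 20 ratios moved by the same 0.43, which is more than the error of each. Under the other alternatives that median ran from -0.20 with ratios from the authors' deposited table to -0.021 with only genes above the median intensity. IFITM1 kept its call under every alternative run, with log2 ratios from -0.79 to -0.36. With only genes above the median intensity, 9 of the 20 genes were left, and 2 were called lower, IFITM1 and IRF1. Without adjustment of the p-values 2 were also called lower. Of the other interferon genes 19 then passed, 15 lower and 4 higher, against 9 with adjustment. These lists held 11 measured signalling genes and 32 measured interferon-induced genes. Of all genes 13.6% passed without adjustment and 5.68% with it. No gene of the 20 was called higher under any alternative, unadjusted deposited p-values included. Of all called genes 54.8% were higher with centring and 43.8% without it. With a detection limit of 0.01, 19 genes were detected in both groups, STAT2 being the one lost. No paired analysis was possible because each group has 1 combined value per probe, and for the same reason no preparation could be left out. Low signal limits 7 of the 20 genes, which lay below 200 in both groups.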
